A study of Mus musculus with 28 samples.

Results

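The Ifi200 family, also called the PYHIN family, was followed in tail tendon of Fosl-2(Tg) mice and wild-type (WT) controls through 8 of its genes that lie together on mouse chromosome 1, out of 25719 genes in the count tables. The 8 members were Aim2, Ifi203, Ifi204, Ifi207, Ifi209, Ifi211, Ifi213 and Mndal, and they were selected on their values in the Fosl-2(Tg) against WT comparison at both stages. For that reason the genotype differences of the members are given here as a description, with no test. Fosl-2(Tg) mice carry a randomly inserted copy of the murine Fosl2 gene, an AP-1 transcription factor gene, driven by the H2Kb promoter of an MHC class I gene and followed by eGFP. Both genotypes were on the C57BL/6 background, and the WT mice were non-transgenic animals of the same breeding. The place of the insertion in the genome is not given in the sources used here. Bulk RNA sequencing was done on homogenate of tail tendon fascicles. The early stage held 7 WT and 8 Fosl-2(Tg) animals, all male, while the established stage held 6 WT and 7 Fosl-2(Tg) animals, with 1 male per genotype and otherwise females. The early mice were the younger cohort, and stage and sex were therefore nearly inseparable.

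PYHIN proteins pair a PYRIN domain, which binds other proteins, with a HIN domain, which binds DNA. Aim2 senses double-stranded DNA in the cytosol and builds an inflammasome with the adaptor Pycard and caspase-1, while p204, the product of Ifi204, detects DNA upstream of the STING pathway. Many of these genes are induced by type I interferon through interferon-stimulated response elements in their promoters, and they are expressed in macrophages and other leukocytes as well as in stromal cells.

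The promoters showed which members resemble each other. The stretches printed here run from 100 bases before to 50 bases after the canonical transcript start (GENCODE M39) in the GRCm39 genome. They cover Ifi209 and the 5 members with the highest early WT levels per length of all annotated exons. Capitals mark the match to an interferon response element, searched as GAAANNGAAA on both strands, and the sequences are written in the direction of transcription.
Ifi207, chr1:173569334-173569483, minus strand: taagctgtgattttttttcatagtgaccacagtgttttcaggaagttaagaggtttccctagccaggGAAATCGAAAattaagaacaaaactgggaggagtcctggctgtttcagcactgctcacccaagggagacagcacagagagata
Ifi204, chr1:173594561-173594710, minus strand: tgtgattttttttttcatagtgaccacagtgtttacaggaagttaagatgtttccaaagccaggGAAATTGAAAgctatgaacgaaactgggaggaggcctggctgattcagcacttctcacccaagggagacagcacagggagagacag
Ifi211, chr1:173740563-173740712, minus strand: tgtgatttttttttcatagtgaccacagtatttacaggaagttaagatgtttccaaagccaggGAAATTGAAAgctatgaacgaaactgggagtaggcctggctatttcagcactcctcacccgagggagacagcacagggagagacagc
Mndal, chr1:173707686-173707835, minus strand: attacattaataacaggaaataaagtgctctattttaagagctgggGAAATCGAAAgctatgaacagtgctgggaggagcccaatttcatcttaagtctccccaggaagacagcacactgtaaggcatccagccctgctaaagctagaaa
Ifi203, chr1:173769987-173770136, minus strand: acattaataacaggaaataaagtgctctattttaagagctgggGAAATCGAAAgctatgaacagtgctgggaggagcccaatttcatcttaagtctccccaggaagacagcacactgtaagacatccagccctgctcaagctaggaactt
Ifi209, chr1:173458280-173458429, plus strand: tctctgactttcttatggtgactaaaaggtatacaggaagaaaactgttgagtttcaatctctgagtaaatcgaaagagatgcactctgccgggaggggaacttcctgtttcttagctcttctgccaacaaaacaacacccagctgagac

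The element was found in 6 of the 8 members, or 75% of them, when 300 bases around the start were searched, from 250 before to 50 after it. Among all 21770 protein-coding promoters of that length, 835 or 3.84% held a match, and among 50 type I interferon-induced genes outside the family 46% did. In the members it began between 57 and 30 bases before the start. The family used 2 forms. GAAATCGAAA stood in Ifi213, Ifi207, Mndal and Ifi203, and GAAATTGAAA stood in Ifi204 and Ifi211, which differs by C6T counted from the first base of the element. Aim2 and Ifi209 had no match, and the closest stretch in Ifi209 differed from the first form by G1T alone. The Aim2 window ran from 173282670 to 173282969, inside the annotated gene, which begins at 173178445. From the start used, its sequence reads ATG, so the window may not hold the promoter. The missing matches in Aim2 are therefore uncertain. A second pattern, TTCNNNGAA, the letters of a gamma-activated site, was found in 0 of 8 members against 8.81% of all promoters. The AP-1 pattern TGANTCA was found in 4 of 8, namely Ifi209, Ifi204, Mndal and Ifi203, against 7.14% of all promoters. None of these matches was tested for binding of a factor.

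The promoters of Ifi204 and Ifi211 were 96.7% identical over the aligned 300 bases, those of Mndal and Ifi203 91%, those of Ifi207 and Ifi204 86.6%, and those of Ifi207 and Ifi211 85.6%. The other 11 pairs among the 6 members that passed the low-count filter lay between 49.4% and 55%. Those with Aim2 rest on its uncertain window. The transcripts are alike as well, which bears on the counts, since a read that fits more than 1 gene cannot be assigned with certainty. Of the windows of 100 bases in the canonical transcript of Ifi211, 56.9% occurred base for base in another family gene, mostly in Ifi205, which held 37.3%. The shares were 17.4% for Ifi209, 15.9% for Ifi204, 12.1% for Mndal, 5.6% for Ifi213, 4.42% for Ifi203, 0.265% for Ifi207 and 0 for Aim2. The values of Ifi211 are therefore the least certain, and how reads with several matches were counted is not given in the sources used here.

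The libraries held between 9645598 and 66894396 counted reads, with group medians from 16638405 to 26998780.5. No pair of libraries of a group agreed within sampling noise. Fosl2 itself ranged from 58.8 to 136 CPM in early WT mice and from 63.4 to 156 CPM in early Fosl-2(Tg) mice, and from 78.1 to 169 and from 121 to 160 CPM in the established groups. Its difference passed the test at neither stage, with a log2 fold change of 0.20 ± 0.24 (SE, adjusted p = 0.918) early and 0.38 ± 0.15 (SE, adjusted p = 0.142) established, by the quasi-likelihood test of edgeR. CPM is the read count relative to the TMM-scaled library size, set over all 28 mice, and every level of a member is given on it.

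Per kilobase of exon, Ifi207 had the highest level of the family in early WT mice, at 6.09 ± 1.32 CPM per kb (SD, n = 7). Ifi204 followed at 2.35 ± 1.06, Mndal at 1.90 ± 0.470 and Ifi211 at 1.84 ± 0.562 CPM per kb, and these 3 neighbours in the order differed by less than their SD. Ifi203 stood at 1.10 ± 0.281 and Aim2 at 0.586 ± 0.183 CPM per kb. The length used is that of all annotated exons together, 6574 bases for Aim2, 7591 for Ifi203 and 4100 for Mndal. Their canonical transcripts have 2079, 4900 and 2062 bases, so the order of the members depends on the length used. Ifi209 and Ifi213 were close to the detection limit, at 0.0784 ± 0.0515 and 0.0119 ± 0.00692 CPM per kb. These last 2 did not pass the low-count filter in any fit, so that 6 of the 8 members have a fitted fold change.

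**Figure D1:**
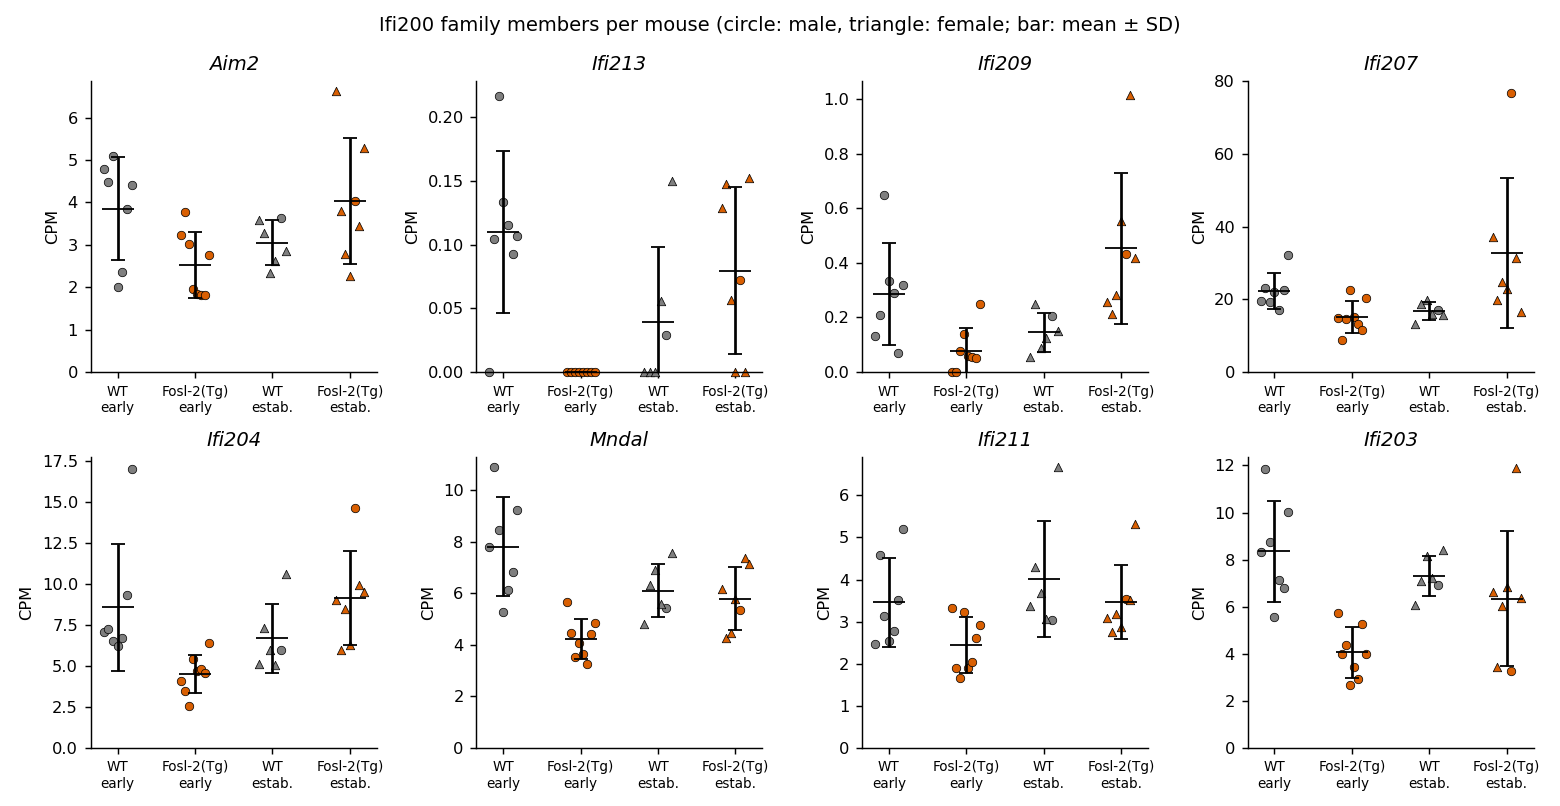
CPM of each member (y axis, linear, from 0) in every mouse of the 4 groups (x axis), with circles for males, triangles for females and bars for the mean ± SD. In the early cohort 7 of 8 Fosl-2(Tg) mice lie below every WT mouse for Ifi204, Mndal and Ifi203, and 1 established Fosl-2(Tg) male stands at 76.6 CPM for Ifi207.

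In the early cohort all 6 fitted members were lower in Fosl-2(Tg) tendon than in WT tendon. Ifi203, a nuclear HIN protein gene, was lowest relative to WT. It ranged from 5.54 to 11.9 CPM with a median of 8.33 in WT mice, and from 2.67 to 5.74 with a median of 4.01 in Fosl-2(Tg) mice. Only the highest Fosl-2(Tg) mouse reached into the WT range, and the log2 fold change was -1.04 ± 0.19 (SE).

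Ifi204 ranged from 6.21 to 17.1 CPM with a median of 7.06 in WT mice, and from 2.56 to 6.43 with a median of 4.62 in Fosl-2(Tg) mice. Again 7 of 8 Fosl-2(Tg) mice lay below the lowest WT mouse, for a log2 fold change of -0.93 ± 0.23 (SE). It was -0.68 without early WT mouse 7, which stood at the top of the group for Ifi204 and Ifi207.

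Mndal, related to the human myeloid nuclear differentiation antigen, ranged from 5.27 to 10.9 CPM with a median of 7.79 in WT mice, and from 3.26 to 5.64 with a median of 4.25 in Fosl-2(Tg) mice. The log2 fold change was -0.88 ± 0.16 (SE), with 7 of 8 Fosl-2(Tg) mice below every WT mouse.

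The other 3 members overlapped more. Aim2 had a median of 4.42 CPM and a range of 2.00 to 5.09 in WT mice, against 2.36 and 1.81 to 3.78 in Fosl-2(Tg) mice, with a log2 fold change of -0.63 ± 0.23 (SE). All 8 Fosl-2(Tg) mice were under the WT median and 4 were under the lowest WT mouse. Ifi207 had a median of 22.03 CPM and a range of 17.2 to 32.1 in WT mice, against 14.8 and 8.90 to 22.6, with a log2 fold change of -0.55 ± 0.17 (SE). Ifi211 had a median of 3.14 CPM and a range of 2.46 to 5.20 in WT mice, against 2.32 and 1.66 to 3.33, with a log2 fold change of -0.50 ± 0.20 (SE). For Ifi211, 2 of 8 Fosl-2(Tg) mice exceeded the WT median.

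The median log2 fold change of the 6 fitted members was -0.76, while that of all 15138 genes tested was -0.01. At an adjusted p of 0.05, edgeR called 0 of the 6, with 0.0396% of all genes called, and at an unadjusted p under 0.05 it called 6 of 6, with 6.06% of all genes called. DESeq2 called 3 of 6 at an adjusted p of 0.05, with 0.118% of all genes called. With the replicate number as a block the count was 1 of 6, with 0.0727% of all genes called. In 0 of 6 was every Fosl-2(Tg) mouse below every WT mouse, a pattern found in 0.0462% of all genes. The members were selected on this comparison, so nothing is read from these counts.

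Both members under the filter had few reads. Ifi213 had 16 reads in all over 7 early WT mice, 6 of which had at least 1, and 0 reads in all 8 early Fosl-2(Tg) mice, which allows up to 0.0261 CPM over the group. Early WT mice averaged 0.110 ± 0.0637 CPM (SD, n = 7). Ifi209 had 38 reads in early WT and 9 in early Fosl-2(Tg) mice, at medians of 0.289 and 0.0562 CPM. All 8 Fosl-2(Tg) mice were below the WT median for Ifi209, and 5 were below the lowest WT mouse. Limits of this kind cover counting error only.

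**Figure D2:**
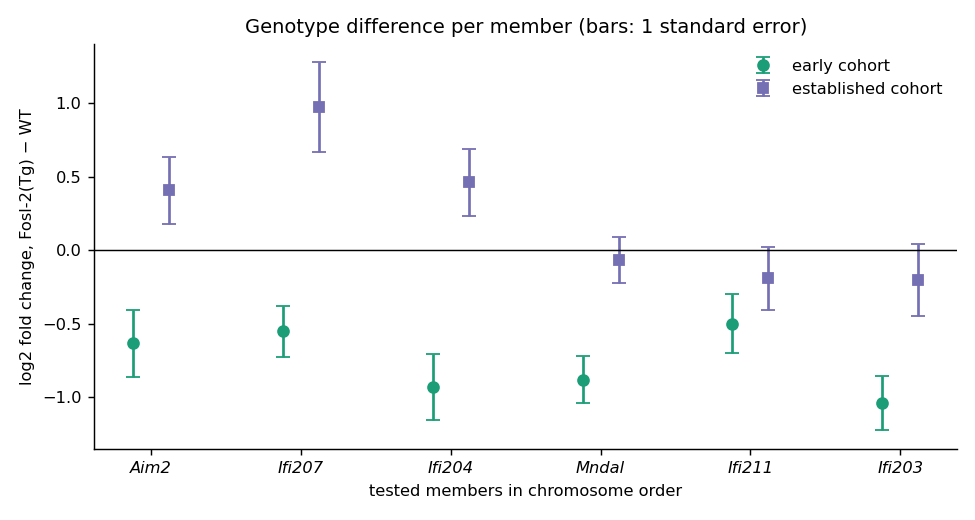
Log2 fold change of Fosl-2(Tg) over WT (y axis) for the 6 fitted members in chromosome order (x axis), with circles for the early and squares for the established cohort and bars of 1 standard error. The early values run from -1.04 to -0.50, and the established values run from -0.20 for Ifi203 to 0.97 for Ifi207, with Mndal, Ifi211 and Ifi203 turning positive when library totals are used with no scaling factor.

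In the established cohort the members parted. Ifi207 ranged from 13.1 to 19.9 CPM with a median of 16.5 in WT mice, and from 16.6 to 76.6 with a median of 24.8 in Fosl-2(Tg) mice. The highest WT mouse was exceeded by 5 of 7 Fosl-2(Tg) mice, and the log2 fold change was 0.97 ± 0.31 (SE). The mouse at 76.6 CPM was the group's male. The 6 females spanned 16.6 to 37.2 CPM, and the log2 fold change without both established males was 0.61.

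Ifi204 ranged from 5.05 to 10.6 CPM with a median of 5.98 in WT mice, and from 5.98 to 14.7 with a median of 9.06 in Fosl-2(Tg) mice, for a log2 fold change of 0.46 ± 0.23 (SE). The same male had the highest value, and without both males the log2 fold change was 0.28. Aim2 had a median of 3.06 CPM in WT and 3.80 in Fosl-2(Tg) mice and a log2 fold change of 0.41 ± 0.23 (SE), and 4 of 7 Fosl-2(Tg) mice exceeded the WT range. Leaving out single mice moved the Aim2 value between 0.25 and 0.51.

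The 3 members at the far end of the cluster overlapped widely between the genotypes. Mndal had medians of 5.95 and 5.79 CPM in WT and Fosl-2(Tg) mice (log2 fold change -0.07 ± 0.16, SE), Ifi211 had 3.52 and 3.17 CPM (-0.19 ± 0.21, SE), and Ifi203 had 7.15 and 6.36 CPM (-0.20 ± 0.25, SE). For Ifi203 the Fosl-2(Tg) mice ran from 3.25 to 11.9 CPM, past both ends of the WT range of 6.07 to 8.39. The sign of these 3 depended on the scaling. With library totals and no scaling factor they were 0.25, 0.13 and 0.10, and the median of all genes then moved by 0.32 in the same direction, so that relative to it all 3 stayed below.

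Ifi209, far less abundant, had a median of 0.138 CPM in established WT and 0.419 in established Fosl-2(Tg) mice, and 6 of 7 Fosl-2(Tg) mice were above the highest WT mouse, on counts of 1 to 15 reads per mouse. Ifi213 was at 0.0391 ± 0.0587 CPM (SD, n = 6) in WT and 0.0796 ± 0.0653 (SD, n = 7) in Fosl-2(Tg) mice.

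The median log2 fold change of the fitted members was 0.17 in the established cohort, against 0.01 for all 15862 genes tested. At an adjusted p of 0.05, edgeR called 0 of 6, with 6.51% of all genes called, and at an unadjusted p under 0.05 it called 1, with 26.6% of all genes called. DESeq2 called 1 of 6, with 9.9% of all genes called. Complete separation upward was seen for 0 of 6 members and for 1.48% of all genes. Here too the members were selected on the comparison.

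Ratios of 2 members within a library do not depend on the scaling. The ratio of Ifi207 to Mndal reads had medians of 2.80 in early WT, 4.07 in early Fosl-2(Tg), 2.88 in established WT and 4.67 in established Fosl-2(Tg) mice, with a highest value of 14.4 in the established male. The ratio of Ifi203 to Mndal reads had medians of 1.07, 0.919, 1.22 and 1.07 in the same order. In WT mice it was nearly constant, at 1.07 ± 0.0525 (SD, n = 7) early and 1.21 ± 0.0800 (SD, n = 6) established, while in Fosl-2(Tg) mice the SD was 0.189 (n = 8) and 0.342 (n = 7). The early Fosl-2(Tg) mice had fewer reads, 36 to 105 for Ifi203 and 40 to 88 for Mndal. Early WT mice had 83 to 293 and 79 to 296. In the established groups the lowest Ifi203 count was 45 reads in Fosl-2(Tg) and 112 in WT mice. Fewer reads widen a ratio by counting error, and the part of this in the SDs was not tested. These ratios were chosen after the values were seen and were not tested.

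The contrast between stages, averaged over both genotypes, does not use the difference that chose the members, and it was tested. All 6 fitted members were higher in the established mice, with log2 fold changes from 0.05 for Mndal to 0.35 for Ifi211, but 0 of 6 passed an adjusted p of 0.05 in edgeR, while 45.8% of all genes did. At an unadjusted p under 0.05, 1 passed, with 52.4% of all genes, and DESeq2 called 0, with 35.6% of all genes. Without early WT mouse 7 Ifi204 and Ifi211 passed, with 44.8% of all genes called. With library totals and no scaling factor all 6 passed, with 76.3% of all genes called, as the median of all genes then moved by 0.47. Ifi211 came closest (0.35 ± 0.15, SE, edgeR adjusted p = 0.0544). Ifi207 (0.35 ± 0.18, SE, adjusted p = 0.109) and Ifi204 (0.32 ± 0.17, SE, adjusted p = 0.122) followed.

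The values of each genotype at each stage entered the differences that chose the members, so that the stage contrasts within 1 genotype are a description. In WT mice 5 of 6 members were lower in the established stage, and Ifi207 went from 22.3 ± 4.84 CPM (SD, n = 7) early to 16.7 ± 2.41 (SD, n = 6), a log2 fold change of -0.41 ± 0.14 (SE). In Fosl-2(Tg) mice all 6 were higher, from a log2 fold change of 0.46 ± 0.15 (SE) for Mndal to 1.11 ± 0.29 (SE) for Ifi207. Ifi204 averaged 4.49 ± 1.18 CPM (SD, n = 8) in early and 9.13 ± 2.88 (SD, n = 7) in established Fosl-2(Tg) mice, a log2 fold change of 1.02 ± 0.20 (SE). The counts at an adjusted p of 0.05 were 0 of 6 in WT mice, with 4.74% of all genes called, and 6 of 6 in Fosl-2(Tg) mice, with 46.8% of all genes called, and nothing is read from them. Stage and sex cannot be told apart in any of these contrasts.

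The files held 5 more genes of the family in the same cluster. Ifi205, whose transcript shares the most sequence with Ifi211, was the only one to pass the low-count filter. Its log2 fold change was -0.21 ± 0.57 (SE) early and -0.80 ± 0.49 (SE) established, and it passed an adjusted p of 0.05 at neither stage. Ifi202b, whose protein has HIN domains and no PYRIN domain and inhibits Aim2, had 30 reads in early WT and 3 in early Fosl-2(Tg) mice, or 0.222 ± 0.123 CPM (SD, n = 7) and 0.0217 ± 0.0305 (SD, n = 8). It had 32 reads in established WT and 6 in established Fosl-2(Tg) mice. The low count of Ifi202b in Fosl-2(Tg) mice was therefore seen at both stages, in 7 of 8 and 5 of 7 mice below the lowest WT mouse. That WT mouse had 1 read at either stage, so the counts of mice rest on values near the detection limit. Ifi206 and Ifi208 reached at most 0.334 and 0.347 CPM in any mouse, and Ifi214 had between 0 and 5 reads per mouse.

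The members span 591992 bases, from 173178445 to 173770436 on chromosome 1 of GRCm39. Genes around the cluster were compared to show whether the same stretch of chromosome differed between genotypes. Within 2 Mb on each side, 87 other genes were annotated, among them olfactory receptor genes with few or no reads. In the early cohort 34 were tested and 0 passed an adjusted p of 0.05 in edgeR or DESeq2. Their median log2 fold change was -0.05, and 22 of 34 were lower. The members' median of -0.76 comes from genes selected on this comparison, so nothing is read from the distance between the 2 medians. At an unadjusted p under 0.05 there were 7 of the 34 neighbours, all lower in Fosl-2(Tg) mice, with 6.06% of all genes called.

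The closest tested neighbours on the side of Aim2 were Cadm3, an adhesion molecule gene, and Ackr1, an atypical chemokine receptor gene. Cadm3 overlaps the start of the annotated Aim2 gene on the other strand but shares no exon with it. Their early log2 fold changes were -0.42 ± 0.26 (SE, edgeR adjusted p = 0.847) for Cadm3 and -0.40 ± 0.28 (SE, adjusted p = 0.861) for Ackr1. Dusp23, a phosphatase gene 717.9 kb away, was at 0.08 ± 0.19 (SE, adjusted p = 0.962). On the other side, Fh1, the fumarate hydratase gene, was at -0.04 ± 0.14 (SE, adjusted p = 0.973) and Kmo, the kynurenine monooxygenase gene, at -1.03 ± 0.27 (SE, adjusted p = 0.449).

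In the established cohort 38 neighbours were tested and 3 passed, with 6.51% of all genes called. At an unadjusted p under 0.05 there were 10, with 26.6% of all genes called. The shares of all genes given for each cohort apply to the gene lists below as well. The 3 were Cd84, a leukocyte surface receptor gene (log2 fold change 1.32 ± 0.36, SE, edgeR adjusted p = 0.0452), Pigm, a GPI anchor enzyme gene (0.34 ± 0.08, SE, adjusted p = 0.0319), and Copa, a coatomer subunit gene (-0.38 ± 0.10, SE, adjusted p = 0.0378). All 3 lay at least 966.8 kb from the cluster, and 0 neighbours passed once both males were left out or, in turn, any of 7 of the 13 mice. Of all genes 3.53% were called without both males, and 2.26% to 7.43% with single mice left out. Ackr1 was at 0.37 ± 0.14 (SE, adjusted p = 0.119), Cadm3 at 0.14 ± 0.16 (SE, adjusted p = 0.596), Dusp23 at -0.40 ± 0.17 (SE, adjusted p = 0.149), Fmn2, a formin gene, at 0.33 ± 0.74 (SE, adjusted p = 0.802) and Fh1 at -0.26 ± 0.17 (SE, adjusted p = 0.344). Whether a difference linked to this stretch of chromosome had a part in the members' values was not tested.

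**Figure D3:**
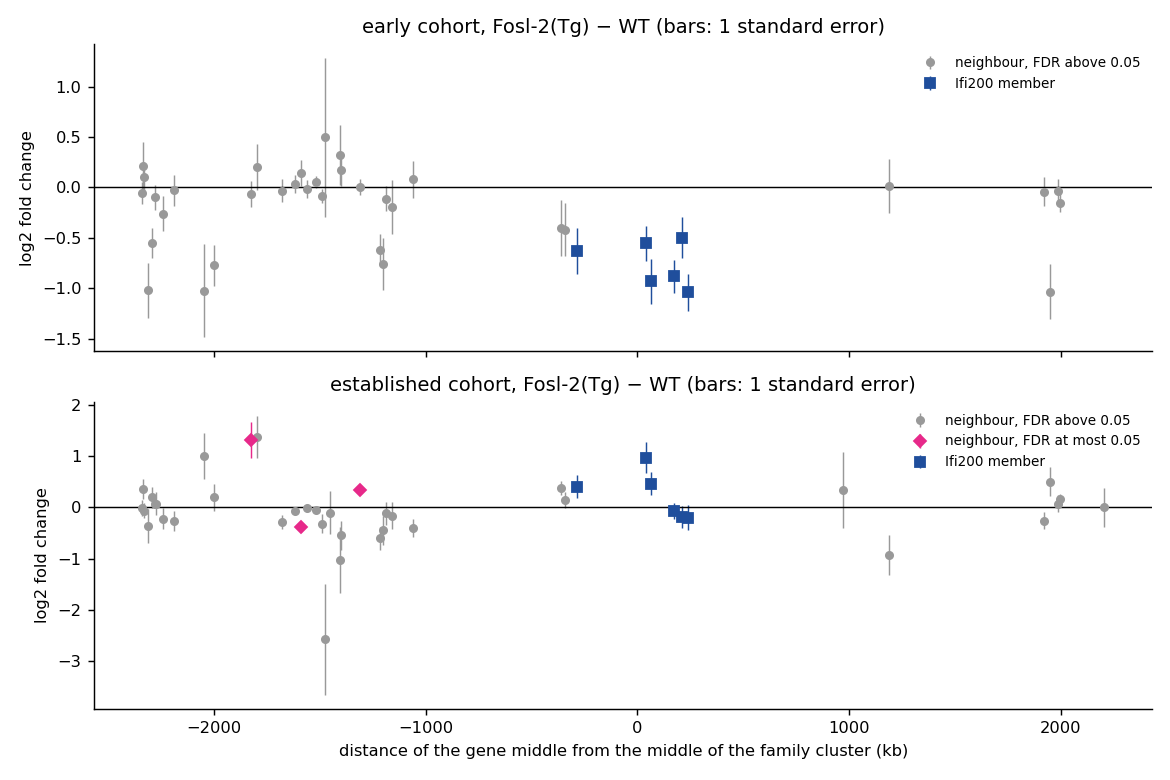
Log2 fold change of Fosl-2(Tg) over WT (y axis, bars of 1 standard error) against the distance of each tested gene from the middle of the cluster in kb (x axis), early cohort above and established cohort below, with squares for members and diamonds for neighbours past an adjusted p of 0.05. In the early cohort the 6 members, which were selected on this comparison, lie between -1.04 and -0.50. The 34 neighbours, which were not, have a median of -0.05.

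Interferon-induced genes outside the family were compared in the same way. Of 50 type I interferon-induced genes outside the family, 43 were tested, and 43 of 43 had a log2 fold change below 0. Their median was -0.54, against -0.01 for all genes. This list and those below were chosen with earlier results of these data known. The genes of a list were read in the same mice, so their signs are not independent. At an adjusted p of 0.05 edgeR called 1, Oas2, an enzyme gene that senses double-stranded RNA (-1.46 ± 0.18, SE, adjusted p = 0.00276), and 29 had an unadjusted p under 0.05. With the replicate block 2 were called and with DESeq2 5, all lower, and without early WT mouse 4 edgeR called 3. Oasl2 was at -1.55 ± 0.28 (SE, adjusted p = 0.0687), Rsad2, the viperin gene, at -1.22 ± 0.43 (SE, adjusted p = 0.678) and Oas1a at -1.08 ± 0.24 (SE, adjusted p = 0.21). The summed level of the list had medians of 593.8 CPM in early WT and 489.9 CPM in early Fosl-2(Tg) mice, with ranges of 462.7 to 755.5 and 411.1 to 525.2.

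The median log2 fold change of the same list was 0.08 in the established cohort, where 0 of 44 tested genes passed in edgeR, 9 had an unadjusted p under 0.05, and DESeq2 called 5. Its largest values in size were -0.71 ± 0.22 (SE, adjusted p = 0.0632) for Lgals3bp, 0.71 ± 0.27 (SE, adjusted p = 0.117) for Ifit2, 0.70 ± 0.36 (SE, adjusted p = 0.226) for Mx1 and -0.63 ± 0.22 (SE, adjusted p = 0.0942) for Ifit3b. The 24 genes of the GTPase and antigen-processing kind that interferon gamma induces had a median of -0.58 early, where edgeR called 0 of 19 with 11 at an unadjusted p under 0.05 and DESeq2 called 0. The lowest of them was Iigp1 at -1.35 ± 0.41 (SE, adjusted p = 0.624). Their median was 0.71 in the established mice, where 20 of 20 were higher. Gbp2 (1.00 ± 0.26, SE, adjusted p = 0.0373) and Psmb8, an immunoproteasome subunit gene (0.63 ± 0.15, SE, adjusted p = 0.0277), passed in edgeR. When established WT mouse 1, 2 or 4 was left out, 0 genes of the list passed, with 2.26%, 2.62% and 2.80% of all genes called. The fitted members had the early sign of both lists' medians, and among established mice Ifi207, Ifi204 and Aim2 had the sign of the interferon gamma list while Mndal, Ifi211 and Ifi203 did not. The established values of Mndal, Ifi211 and Ifi203 lay within their SE of 0, and their sign turned with library totals. The members were selected on this comparison, so nothing is read from these signs.

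Partners of Aim2 and other genes of DNA sensing were listed separately. Of 18 tested, 0 passed early in edgeR, with 5 at an unadjusted p under 0.05, and the list had a median of -0.13. Tlr9, an endosomal DNA sensor gene, was at -0.84 ± 0.20 (SE, adjusted p = 0.342) and Casp1 at -0.63 ± 0.22 (SE, adjusted p = 0.662). Among established mice Casp4, an inflammatory caspase gene (1.02 ± 0.22, SE, adjusted p = 0.0202), and Pycard, the adaptor of the Aim2 inflammasome (0.65 ± 0.18, SE, adjusted p = 0.0457), rose, and 2 of 18 passed in all. Among 19 genes of interferon ligands, receptors and signalling, 15 were tested and 0 passed early, with 3 at an unadjusted p under 0.05. At the established stage Ifngr1, an interferon gamma receptor chain gene (0.85 ± 0.14, SE, adjusted p = 0.00929), and Socs3, a feedback inhibitor gene (0.67 ± 0.18, SE, adjusted p = 0.0415), rose.

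Markers of leukocytes were compared next. In the early cohort, of 20 macrophage genes 19 had a negative log2 fold change. The median was -0.39, with 0 past an adjusted p of 0.05 in edgeR, 13 at an unadjusted p under 0.05, 1 with the replicate block and 2 in DESeq2. Mrc1, the mannose receptor gene, was at -0.56 ± 0.12 (SE, adjusted p = 0.191). The 5 pan-leukocyte genes had negative values too, with 0 past an adjusted p of 0.05 in edgeR and 3 at an unadjusted p under 0.05, and with Ptprc, which encodes CD45, at -0.47 ± 0.16 (SE, adjusted p = 0.657). The summed macrophage level had medians of 1564 CPM in early WT (range 1166 to 1806) and 1224 CPM in early Fosl-2(Tg) mice (1049 to 1506), and of 1261 CPM (933.6 to 1503) and 1562 CPM (1250 to 1937) in the established groups. At the established stage 3 macrophage genes rose, with Cd163 at 1.07 ± 0.14 (SE, adjusted p = 0.00465), and Cx3cr1 fell (-1.81 ± 0.28, SE, adjusted p = 0.00804). T and NK cell markers, of which 1 or 2 of 8 had no read in any mouse of a group, summed to at most 1.763 CPM and B and plasma cell markers to at most 1.456 CPM in any mouse. In bulk tissue, fewer cells of a type and less RNA per cell cannot be told apart, and the part of interferon-induced transcription or of leukocyte number in the members' values was not tested.

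The tissue itself was checked in the same way. Tendon genes were present in every mouse, summing to between 186100 and 609300 CPM in the early groups and 90670 and 183900 CPM in established WT mice, but to between 3334 and 73130 CPM in established Fosl-2(Tg) mice. In that cohort 4 of 8 tendon genes fell, with Col1a1 at -2.50 ± 0.63 (SE, adjusted p = 0.0356). Skeletal muscle genes ranged from 35.0 to 14510 CPM over single mice. Erythroid genes, a sign of blood in the sample, had the same sign as the macrophage list at both stages, with a median log2 fold change of -0.99 over 3 genes early and 2.38 over 4 genes established, and 0 passed an adjusted p of 0.05 in edgeR at either stage. Hbb-bs, a beta globin gene, was at -2.27 ± 0.58 (SE, adjusted p = 0.442) early and 3.06 ± 0.91 (SE, adjusted p = 0.0594) established. The summed erythroid level had medians of 12.5 CPM in early WT (8.44 to 33.1), 9.35 in early Fosl-2(Tg) (7.80 to 11.3), 10.1 in established WT (8.94 to 20.1) and 17.3 CPM in established Fosl-2(Tg) mice (10.2 to 125.6). Their part in the members' values was not tested. Endothelial, keratinocyte, dendritic cell, and neutrophil and mast cell markers had 0 genes past an adjusted p of 0.05 in either genotype comparison in edgeR.

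Differences between mice of the same group use nothing of the genotype contrast. Each member's log2 CPM and the mean z-score of a gene list were therefore taken as deviations from the group mean and correlated over the 28 mice, with mice permuted within groups 100000 times (two-sided) and p-values adjusted over the 12 relations. Mndal followed both lists. Its Pearson r was 0.63 with the type I interferon list (permutation p = 0.00178, adjusted p = 0.00657, Spearman rho 0.59, permutation p = 0.00309, adjusted p = 0.00927) and 0.66 with the macrophage list (permutation p = 0.00054, adjusted p = 0.00324, rho 0.64, permutation p = 0.00088, adjusted p = 0.00352). Without the 2 mice farthest from the median of the list, r was 0.62 and 0.66.

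Ifi203 had an r with the interferon list like that of Mndal (r = 0.63, permutation p = 0.00013, adjusted p = 0.00156, rho 0.73, permutation p = 5e-05, adjusted p = 0.0006, r = 0.67 without the 2 farthest mice). With the macrophage list r was 0.43 (permutation p = 0.0254, adjusted p = 0.0454, rho 0.49, permutation p = 0.0122, adjusted p = 0.0292, r = 0.47 without the 2 farthest), and this relation did not pass once both established males were left out (r = 0.38, adjusted p = 0.102). Aim2 had r = 0.47 with the interferon list (permutation p = 0.0265, adjusted p = 0.0454, rho 0.39, permutation p = 0.0668, adjusted p = 0.134, r = 0.41 without the 2 farthest). With the macrophage list Aim2 had r = 0.58 (permutation p = 0.00219, adjusted p = 0.00657, rho 0.62, permutation p = 0.0008, adjusted p = 0.00352, r = 0.54 without the 2 farthest). Ifi211 reached 0.45 with the macrophage list (permutation p = 0.0245, adjusted p = 0.0454, rho 0.34, permutation p = 0.103, adjusted p = 0.155, r = 0.40 without the 2 farthest) and 0.38 with the interferon list (permutation p = 0.0729, adjusted p = 0.109, rho 0.36, permutation p = 0.0924, adjusted p = 0.155, r = 0.34 without the 2 farthest).

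The relations of Ifi207 and Ifi204 passed with neither list. For Ifi207 r was -0.01 with the interferon list (permutation p = 0.956, adjusted p = 0.956, rho 0.05, permutation p = 0.821, adjusted p = 0.895, r = -0.08 without the 2 farthest) and -0.17 with the macrophage list (permutation p = 0.406, adjusted p = 0.541, rho -0.01, permutation p = 0.967, adjusted p = 0.967, r = -0.28 without the 2 farthest). For Ifi204 r was 0.08 (permutation p = 0.754, adjusted p = 0.822, rho -0.05, permutation p = 0.793, adjusted p = 0.895, r = -0.07 without the 2 farthest) and 0.09 (permutation p = 0.666, adjusted p = 0.799, rho 0.08, permutation p = 0.702, adjusted p = 0.895, r = -0.02 without the 2 farthest).

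Each cohort was also taken alone. In the 15 early mice r with the interferon list was 0.77 for Mndal, 0.73 for Ifi203, 0.70 for Aim2, 0.55 for Ifi211, 0.19 for Ifi204 and 0.11 for Ifi207. For the relations with the macrophage list that passed, r in early and established mice was 0.84 and 0.33 for Aim2, 0.78 and 0.51 for Mndal, 0.61 and 0.26 for Ifi203, and 0.37 and 0.54 for Ifi211. In the 13 established mice alone 0 of 12 relations passed after adjustment, with 1 at an unadjusted permutation p under 0.05, which was Ifi203 with the interferon list (r = 0.58, permutation p = 0.0363, adjusted p = 0.349), and Mndal had r = 0.34 with that list. Whether the cohorts differ in these relations was not tested.

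Deviations of same-numbered early mice had r from 0.129 to 0.363, though the labels give no link beyond the number. The permutation was therefore repeated with those pairs kept together, a choice made after seeing the data. The relations of Aim2 with the interferon list and of Ifi203 with the macrophage list then missed the threshold, at adjusted permutation p = 0.0739 for each. The other 5 that had passed did so again, with adjusted permutation p from 0.00348 to 0.0429.

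**Figure D4:**
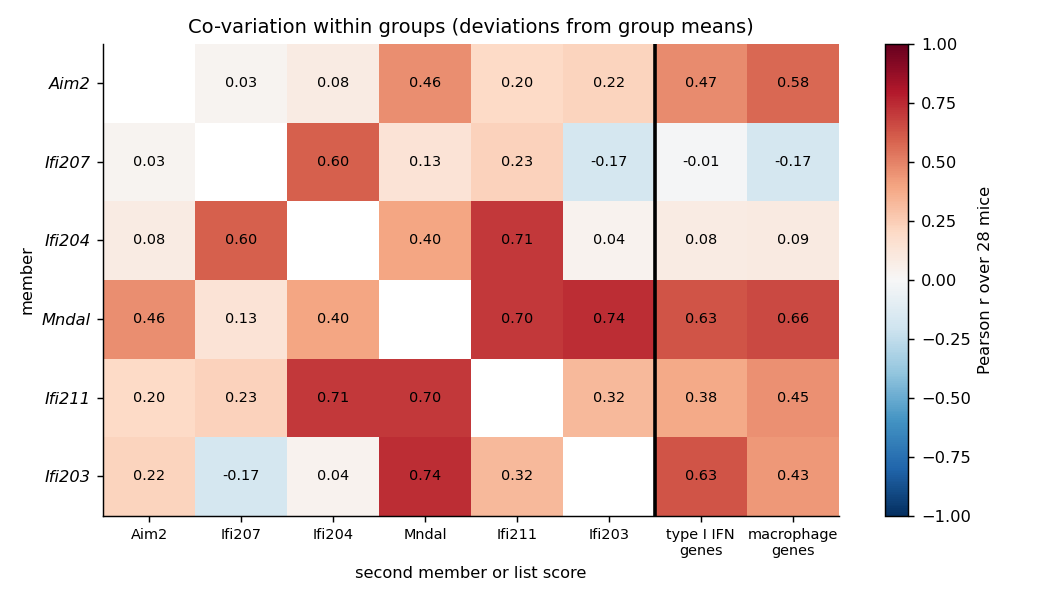
Pearson r over 28 mice, as colour and number, between each fitted member (vertical) and the other members, the type I interferon list and the macrophage list (horizontal), all as deviations from group means. Mndal and Ifi203 reach 0.63 with the interferon list, and Ifi207 and Ifi204 stay between -0.17 and 0.09 with both lists.

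Pairs of members were compared in the same way, with p-values adjusted over the 15 pairs, of which 4 passed. These were Mndal with Ifi203 (r = 0.74, permutation p = 4e-05, adjusted p = 0.00045, rho 0.76, permutation p = 3e-05, adjusted p = 0.00045, r = 0.69 without the 2 farthest mice) and Ifi204 with Ifi211 (r = 0.71, permutation p = 0.0002, adjusted p = 0.001, rho 0.72, permutation p = 7e-05, adjusted p = 0.000525, r = 0.70 without the 2 farthest). Mndal with Ifi211 (r = 0.70, permutation p = 6e-05, adjusted p = 0.00045, rho 0.69, permutation p = 0.0002, adjusted p = 0.001, r = 0.67 without the 2 farthest) and Ifi207 with Ifi204 (r = 0.60, permutation p = 0.00094, adjusted p = 0.00353, rho 0.59, permutation p = 0.00215, adjusted p = 0.00806, r = 0.61 without the 2 farthest) were the others. With the early pairs kept together in the permutation all 4 passed again, with adjusted permutation p from 0.000375 to 0.006. All 4 kept an r of at least 0.59 in each cohort alone.

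Of these 4 pairs, 3 were among the 4 with a promoter identity of 85.6% or more, namely Mndal with Ifi203, Ifi204 with Ifi211 and Ifi207 with Ifi204. The fourth such pair, Ifi207 with Ifi211, had r = 0.23 over all mice, with 0.62 among early and -0.09 among established mice. Mndal with Ifi211, at 55% promoter identity, was the exception on the other side. Transcript windows were shared as well, up to 19.6% for Ifi204 with Ifi211, 6.41% for Mndal with Ifi211 and 4.64% for Mndal with Ifi203, but only 0.388% for Ifi207 with Ifi204. The part of shared reads in these correlations was not tested. The pairs of high promoter identity had first coordinates 23.87, 71.43, 149.1 and 172.9 kb apart. Pairs of low identity without Aim2 covered a like range, from 24.06 kb for Ifi211 with Ifi203 to 197.0 kb for Ifi207 with Ifi203. The 4 closest pairs, with first coordinates 23.87 to 71.43 kb apart, held 3 of the 4 that passed (Ifi207 with Ifi204, Mndal with Ifi211 and Mndal with Ifi203), and the 5 pairs with Aim2, at 372.5 kb or more, held none. The separate parts of promoter identity, transcript sharing and distance over these 15 pairs were not tested.

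**Figure D5:**
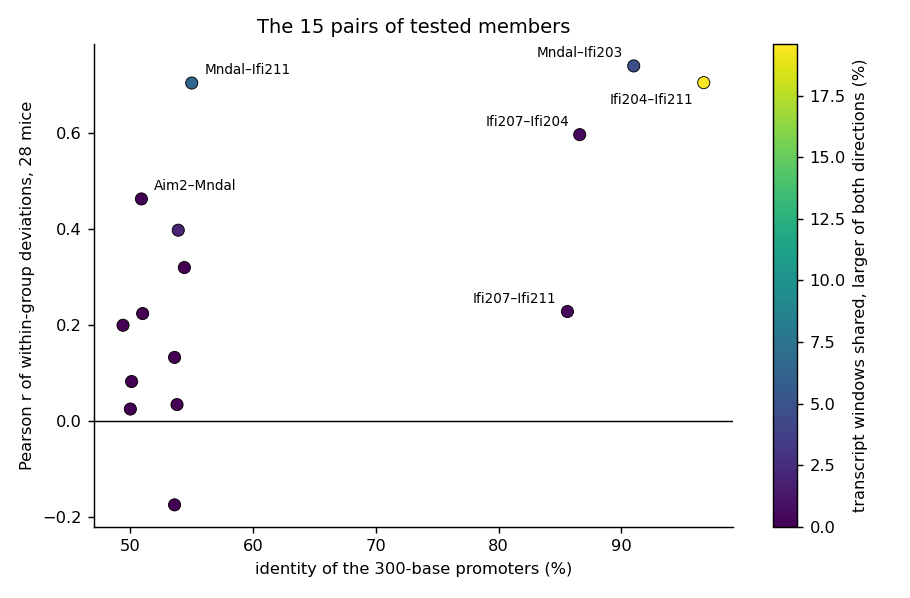
Pearson r of within-group deviations over 28 mice (y axis) against the percent identity of the 300-base promoters (x axis) for the 15 pairs of fitted members, coloured by the share of transcript windows in common. Of the 4 pairs at 85.6% identity or more, 3 lie at r of 0.60 or more, and the other pairs, at 55% or less, run from -0.17 to 0.70. The identities with Aim2 rest on a window inside the annotated gene, which may not hold the promoter.

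Outside the family, genes whose deviations were most like the mean of the 6 members over the 28 mice included Naip2, a sensor gene of an inflammasome (r = 0.74), Agmo, an ether lipid enzyme gene (r = 0.74), Marchf1, a ubiquitin ligase gene of antigen-presenting cells (r = 0.74), and Acp2, a lysosomal phosphatase gene (r = 0.73). All 4 are among the top 5 of 16015 genes, of which the middle 90% lay between -0.44 and 0.44, and they were picked for their r, so no test is given. In the early and established cohorts taken alone r was 0.82 and 0.65 for Naip2, 0.87 and 0.47 for Agmo, 0.73 and 0.76 for Marchf1, and 0.86 and 0.51 for Acp2. None of these 4 genes lies on chromosome 1.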

How the data were processed

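The deposited tables hold raw read counts per gene. The authors aligned reads to GRCm39 with STAR and counted them with featureCounts against GENCODE, 1 table per mouse, from rRNA-depleted total RNA. The versions of STAR and featureCounts, the strand setting and handling of reads with several matches are not given in the sources used here. Gene symbols and positions came from GENCODE M39 on GRCm39, which named 25505 of the 25719 genes. The members and the gene lists were chosen with earlier results of these data known.

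Counts were fitted with edgeR 4.0.16 in R 4.3.3 (TMM scaling, a filter at a count minimum of 10, quasi-likelihood test, Benjamini-Hochberg adjustment over all genes tested, called at 0.05), per cohort for genotype and over all 28 mice for stage. DESeq2 1.42.0, other scalings, no filter, a replicate block, exclusion of the 2 established males and of each mouse were alternatives. Deviations of same-numbered WT and Fosl-2(Tg) mice had a positive r in the early cohort (0.129 to 0.363 over 7 pairs), so blocked values stand beside the early counts they changed. A link between these mice is not given by the labels. Each library is 1 mouse, per the study's description. Log2 CPM for correlations used a prior count of 2. The fits and the permutation were tested on simulated data. Genes are named by a rule: all family genes with counts, neighbours within 2 Mb that passed or were among the 3 closest on a side, up to 4 genes per list, and the 5 genes most like the members. Some genes that this rule names are not reported here. The neighbour count at 5 Mb and the library totals, the last added after the data were seen, are among the alternatives.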

Additional observations from a re-analysis of the deposited data

Results flagged for a closer look

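Among 31 groups of mice checked for 1 far value, 8 had a highest mouse whose gap to the next exceeded Dixon's 95% critical value. Chance gives about 1 in 20 for independent, normally distributed values. The values here were linear CPM, and several flags share a mouse, so no excess over that rate is read. Ifi207 reached 76.64 CPM in the male of the established Fosl-2(Tg) group, against 37.2 CPM in the next mouse, and 32.12 CPM in early WT mouse 7, against 23.19 CPM in the next. The same early WT mouse had 17.06 CPM for Ifi204, with 9.316 CPM in the next. Ifi211 stood at 6.669 CPM in established WT mouse 6, whose Ifi213 value of 0.1499 CPM rested on 2 reads, and at 5.328 CPM in established Fosl-2(Tg) mouse 7. Established Fosl-2(Tg) mouse 6 was highest for Ifi203, at 11.91 CPM, and for Ifi209, at 1.015 CPM from 15 reads. Every one of the 8 was at the upper end of its group. No cause was tested.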

How the results depend on the processing

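The members' stage contrast, where 0 of 6 passed, gave 6 in Fosl-2(Tg) mice only, 6 with library totals only, 2 with the replicate block and 0 to 2 with single mice left out. In WT mice only the sign turned for Aim2 (-0.33), Ifi207 (-0.41), Ifi204 (-0.37), Mndal (-0.35) and Ifi203 (-0.19), and Mndal ranged from -0.0042 to 0.10 with single mice left out. The Fosl-2(Tg)-only and library-total settings were chosen after seeing the data. In the early cohort the type I interferon list, with 1 gene passing, gave 5 in DESeq2, 2 with the block and 1 to 3 with mice left out, and the macrophage list, with 0, gave 2, 1 and 0 to 1. In the established cohort DESeq2 gave 5 neighbours in place of 3, 5 type I interferon genes in place of 0 and 7 interferon gamma genes in place of 2. Library totals only gave 14, 24 and 15 of these and 14 macrophage genes in place of 4, with the median of all genes moved by 0.32 and 47.6% of all genes called. With no filter there were 1 neighbour and 2 macrophage genes, and at 5 Mb 6 neighbours. Without the 2 males there were 0 neighbours, 1 and 1 genes of the interferon lists and 2 macrophage genes, with 3.53% of all genes called. Leaving out single mice gave 0 to 4 neighbours, 0 to 1, 0 to 4 and 2 to 4 list genes in the same order, with 2.26% to 7.43% of all genes called. Same-numbered established mice of both genotypes had r from -0.223 to 0.688 over 6 pairs, and no permutation kept these pairs together. The labels give no link beyond the number. The replicate block in the established cohort gave 1 type I interferon gene, 0 interferon gamma genes and 2 macrophage genes. The Mndal difference moved from -0.07 to 0.25 with library totals. For these results the cause was not tested. Ifi209 and Ifi213 had too few reads for a fit.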
